A study of Mus musculus with 13 samples.

Results

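Outer root sheath (ORS) cells carrying Lgr5 and Sox9 were chosen at birth (P0) from single-cell libraries of mouse back epidermis by a rule that reads 12 genes, so the cells were selected on the measured UMIs of those genes. A kept cell entered when Krt5 and Krt14, the basal keratins, summed to at least 10 unique molecular identifiers (UMIs, the tags of single captured transcripts) per 10,000, and when at least 3 of Lgr5, Sox9, Sostdc1, Tbx1 and Barx2 were detected. It was left out with more than 1 UMI of Shh, with 5 or more per 10,000 of the inner root sheath keratins Krt25, Krt27 and Krt28 in sum, or with 3 or more per 10,000 of Krt79, a keratin of the upper follicle. The rule took 6646 of 34852 kept P0 cells (19.1%), out of 97363 barcodes in the 13 libraries of the series. The levels of those genes are therefore a description and were not tested.

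The study compared skin of wild-type (WT) C57BL/6 mice with that of Grhl3-/- littermates (KO), which lack the epidermal transcription factor Grhl3 in all tissues. At P0 there were 2 WT and 2 KO libraries of epidermis, and 1 more WT library whose title names the earlier Chromium v1 chemistry (v1 library). Cells came from a circle of back skin between the forelimbs, away from the spina bifida that the KO animals had, after the epidermis was parted with dispase. No label ties a library to more than its genotype and number, so p-values measure the spread between 2 libraries per genotype. Values of the 5 libraries are given in the order WT 1, WT 2, KO 1, KO 2 and v1 library.

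The ORS is the outermost epithelial layer of the hair follicle. It is continuous with the basal layer of the epidermis above and reaches down around the inner root sheath towards the hair matrix, the dividing cells at the base that build the hair shaft. Sox9 is needed to set up this layer and its stem cells, Lgr5 encodes a receptor for R-spondins that marks cycling stem cells of the lower follicle, and at birth the back follicles are still growing down.

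Of the kept cells, the 5 libraries held 6765, 6589, 9157, 7283 and 5058, and the ORS cells among them 1511, 1247, 1756, 1319 and 813. The ORS cells carried between 8952148 UMIs in the v1 library and 24961927 in KO 1, and their median cell held 8760, 10432, 11805, 12739 and 8997 UMIs. The median depth was higher in both KO libraries than in the WT libraries, and shares of cells with a gene depend on depth, so those of single genes are given after thinning to an equal depth. Between pairs of libraries at most 6 ORS barcodes were shared. Melanocyte RNA (Dct, Pmel, Mlana and Tyr at 10 or more per 10,000 in sum) lay in 10.8, 6.58, 4.61, 10.1 and 4.06% of ORS cells, and RNA of major histocompatibility class II genes in 0.321 to 0.738%. In the ORS cells of every library Ddx3y, a gene of the Y chromosome, stood between 43.2 and 51.7 UMIs scaled to the library's ORS total (CPM) and Xist at 0.127 CPM or less, whereas the methods name a male and a female per genotype.

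Grhl3 itself was low in ORS cells, at 2.85 and 3.04 CPM in WT, 0.641 and 0.961 CPM in KO, and at 3.57 CPM in the v1 library. Both KO libraries lay below all 3 WT libraries, with a log2 fold of -1.80 ± 0.34 and an adjusted p of 0.00834 by edgeR's quasi-likelihood test with Benjamini-Hochberg adjustment, the test behind every adjusted p here. Values after ± are standard errors (SE) of the fitted log2 fold unless said otherwise. Some Grhl3 UMIs remained in the KO libraries.

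The 5 genes that define the ORS cells have separate roles, and Sox9, Sostdc1 and Barx2 were about as high in Krt79 upper follicle cells. In WT 1 they stood at 3.40, 3.74 and 4.60 UMIs per 10,000 there, against 3.37, 3.54 and 3.90 in ORS cells. In WT 2 the values were 2.83, 3.99 and 3.73 against 3.03, 4.26 and 3.34. Lgr5 and Tbx1 were lower in upper follicle cells, at 0.292 and 0.182 in WT 1 against 0.765 and 0.599 in ORS cells. Lgr5 (chr10:115450311-115587780, all coordinates in GRCm38) stood at 76.5, 80.6, 86.3, 73.0 and 33.4 CPM. Sox9, a transcription factor (chr11:112782224-112787760), stood at 337, 303, 225, 253 and 154 CPM. Both were lowest in the v1 library. Sostdc1, a secreted inhibitor of BMP and Wnt signals (chr12:36314139-36318452), stood at 354, 426, 415, 632 and 647 CPM. The transcription factor Tbx1 (chr16:18580979-18590671) stood at 59.9, 63.8, 107, 91.4 and 58.0 CPM. Its highest values were those of the KO libraries. Barx2, a homeobox factor (chr9:31846044-31913462), stood at 389.7, 334, 265, 231 and 329 CPM, with both KO libraries below all WT libraries. Members entered by detection of these genes, and the KO cells were deeper, so the rule itself can shift these levels between KO and WT. Its part was not tested.

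Few members carried the whole set. All 5 genes were detected in 14.96, 17.4, 29.2, 23.0 and 7.38% of ORS cells, 4 of them in 31.8, 32.9, 31.2, 31.2 and 24.8%, and exactly 3 in the rest. These shares are not thinned, and the KO cells were deeper. After each cell was thinned to 4000 UMIs, Lgr5 was detected in 26.8, 30.1, 29.2, 26.2 and 17.1% of ORS cells, against 0.908 to 1.42% of cells taken by melanocyte genes. The latter were not cleared of doublets or of other follicle classes, so their shares are no measured level of free RNA. Without thinning Lgr5 was detected in 47.9, 52.8, 59.2, 56.8 and 30.1% of ORS cells. Members without a Lgr5 UMI entered through the other genes.

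The edge of the rule lay within a gradient. Members with exactly 3 of the genes held Sox9 at 2.66, 2.28, 1.65, 1.83 and 1.32 UMIs per 10,000. The Krt5 and Krt14 cells just outside, with 2 of the genes, numbered 673, 543, 1141, 781 and 1034 and held Sox9 at 1.33, 1.07, 0.907, 1.11 and 0.460. Among cells with 3 or more of the genes, Krt79 removed 503, 380, 349, 419 and 442, Shh removed 282, 284, 243, 273 and 81, and the inner root sheath keratins removed between 10 and 24 per library. Members with 1 to 3 Krt79 UMIs per 10,000 made up 23.2, 24.3, 14.46, 18.3 and 35.9%. In thinned cells Krt79 was seen in 11.3 to 27.6% of ORS cells and in 6.66 to 22.0% of cells taken by melanocyte genes. These shares overlap.

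**Figure D1:**
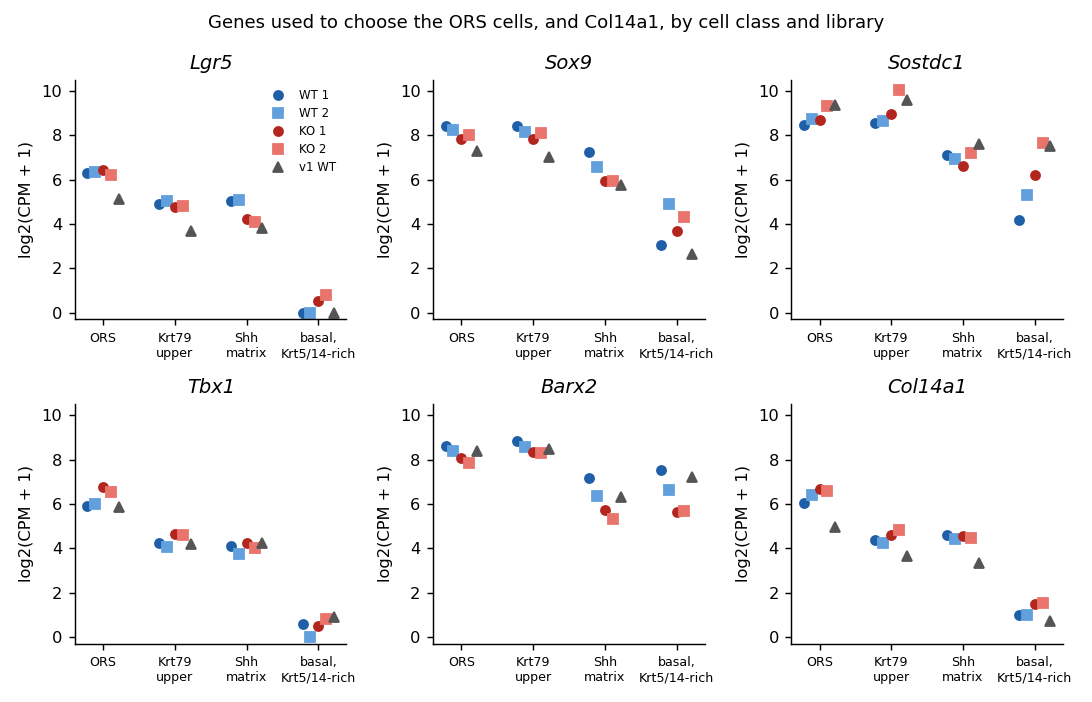
Level of the 5 genes that chose the ORS cells and of Col14a1, as log2(CPM + 1) of summed UMIs, in 4 cell classes (x axis) with 1 point per library. Col14a1, which the rule did not read, is highest in ORS cells within each library, and Lgr5 lies at or near 0 in basal cells rich in Krt5 and Krt14. In WT 1 and WT 2, Sox9, Sostdc1 and Barx2 are about as high in Krt79 upper follicle cells as in ORS cells.

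Genes outside the rule were also read. The label names Col14a1 and was chosen with earlier results of these data known, so the Col14a1 level is no check of it. A contrast with cells taken by melanocyte genes does not tell ORS cells from other follicle cells. Col14a1, a fibril-associated collagen named in the label (chr15:55307750-55520803), stood at 64.2, 83.7, 101, 94.2 and 30.0 CPM in ORS cells. It was detected in 21.9, 29.4, 33.0, 27.4 and 12.8% of thinned ORS cells, against 1 to 7.29% of cells taken by melanocyte genes. Lhx2, a transcription factor of follicle stem cells, was detected in 66.1, 67.0, 64.3, 60.4 and 48.1%, against 3 to 14.3% of cells taken by melanocyte genes. In matrix cells its share was higher still, at 85.4, 85.2, 74.5, 74.5 and 93.0%. Krt15 and Krt17, keratins of the ORS and of other basal cells, were detected in 87.9 to 97.4% and 97.7 to 99.2%, against 23.9 to 51.7% and 25.7 to 65% of cells taken by melanocyte genes. Cd34, which marks adult bulge stem cells in mouse, was detected in at most 0.498% of thinned ORS cells. Krt75, the companion layer keratin, was detected in at most 0.854%. Of these genes, Lhx2, Krt15 and Krt17 are shared with other follicle classes, and the defining gene of the adult bulge was near 0.

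ORS cells made up 22.3% (95% exact binomial interval 21.3 to 23.3) and 18.9% (18.0 to 19.9) of kept cells in the WT libraries, 19.2% (18.37 to 19.998) and 18.1% (17.2 to 19.01) in the KO libraries and 16.1% (15.1 to 17.1) in the v1 library. These intervals cover counting error alone. The KO libraries overlapped the WT libraries, and a fit over 8 cell classes gave a KO against WT log2 fold of -0.15 ± 0.29 (SE) with an adjusted p of 0.716, so no difference in share was detectable. Of cells with Krt5 and Krt14 alone, ORS cells were 31.2 and 29.7% in WT, 25.8 and 27.1% in KO and 17.4% in the v1 library. The WT and KO libraries did not overlap on this denominator, where the fold was -0.20 ± 0.15 (adjusted p = 0.266), and the v1 library lay below all 4. Thinned to 4000 UMIs per cell, the rule took 14.6, 11.4, 10.7, 9.60 and 8.59% of kept cells, of which 113 in WT 1 and 75 in the v1 library were too shallow and left out. These thinned shares of WT and KO did not overlap either (log2 fold -0.36 ± 0.34, adjusted p = 0.486), and the v1 library was again lowest. Suprabasal Krt1 and Krt10 cells, which share the denominator, fell in the KO libraries by 2.50 on the log2 scale (adjusted p = 0.00711). That call was lost with a replicate block (adjusted p = 0.205), with the v1 library as WT (0.0840) and without WT 1 (0.497), WT 2 (0.677) or KO 1 (0.0681), and the fold was -1.89 without KO 1 and -3.55 without KO 2. An exact permutation test of 2 libraries against 2 cannot give a two-sided p below 0.33.

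**Figure D2:**
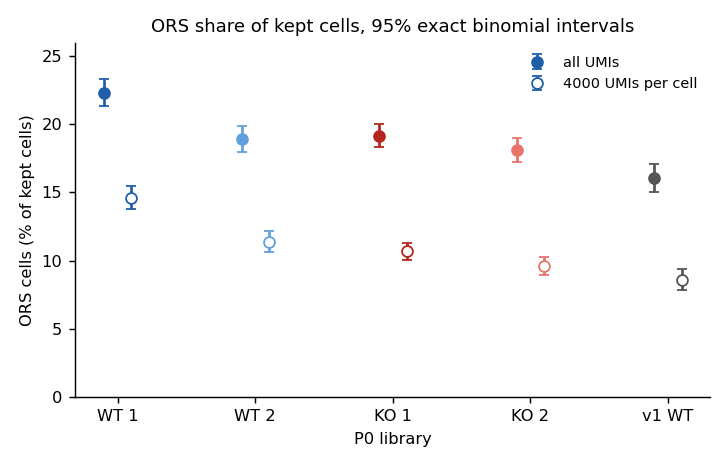
Share of kept P0 cells chosen as ORS cells (y axis, percent) in each library (x axis), from all UMIs (filled points) and after thinning each cell to 4000 UMIs (open points), with 95% exact binomial intervals. The share falls on thinning in each library, and the WT and KO libraries overlap with all UMIs.

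To see what ORS cells carry beyond the genes that chose them, they were set against basal cells rich in Krt5 and Krt14, a class of 2410 cells chosen after values had been seen. Those cells held at least 100 UMIs per 10,000 of the 2 keratins, at most 1 of the 5 ORS genes, under 100 per 10,000 of Krt1 and Krt10 in sum, and no marked melanocyte or class II RNA. That limit on Krt1 and Krt10 is well above the level of the median ORS cell. The median basal cell held 6407 to 6928 UMIs by library, against 8760 to 12739 in ORS cells, and this comparison was not repeated in thinned cells. Median Krt5 and Krt14 was 171 to 356 per 10,000 in the basal cells and 35.7 to 82.5 in ORS cells. The part of these 2 gaps in the differences was not tested. ORS cells were higher for 869 of 12576 genes tested (6.91%) and lower for 711 (5.65%), at an adjusted p under 0.05 and at least 2-fold. Leaving out a library gave 1252 to 1795 such genes in place of 1580. Since the classes were cut by genes of the same cells, genes that vary with those genes differ as well, and each test asks only whether the difference recurred across the 5 libraries. Several calls turned against the reference planned at first, Krt5 and Krt14 cells with none of the 5 ORS genes, whose values follow these.

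Col14a1 had the largest fold of the genes named by rule. Its level was 64.2, 83.7, 101, 94.2 and 30.0 CPM in ORS cells and 0.982, 0.983, 1.81, 1.92 and 0.675 CPM in basal cells, a 51.3-fold difference (log2 5.68 ± 0.14, adjusted p = 3.84e-09). The classes did not overlap. Lhx2 stood at 355, 347, 317, 299.5 and 229 CPM in ORS cells and 15.7, 22.6, 9.67, 11.1 and 28.8 CPM in basal cells (log2 4.06 ± 0.25, adjusted p = 1.70e-06). This depended on the reference. In WT 1 and WT 2 the planned reference held more Lhx2 than ORS cells, at 5.15 and 4.10 against 3.55 and 3.47 UMIs per 10,000. Nfatc1, a transcription factor that keeps follicle stem cells quiescent, stood at 59.3, 57.2, 54.8, 46.5 and 37.8 CPM against 10.3, 3.93, 3.82, 2.68 and 7.87 CPM (log2 3.09 ± 0.23). Again the ranges were apart, and all 3 genes were lowest in the v1 library among ORS cells.

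Signalling genes were among those higher in ORS cells. Tgfb2, a TGF-beta ligand, ranged from 37.3 to 64.1 CPM in ORS cells and from 1.92 to 6.88 CPM in basal cells (log2 3.51 ± 0.25). Nrp2, a co-receptor for semaphorins and VEGF, ranged from 42.1 to 183 CPM and from 9.22 to 17.6 CPM (log2 3.13 ± 0.18). Igfbp7, a secreted binding protein of insulin-like growth factors, ranged from 75.8 to 205 CPM and from 3.44 to 16.9 CPM (log2 3.65 ± 0.22). For each gene the basal range lay below the ORS range. Cdc42ep3, an effector of the GTPase Cdc42, was higher by 3.83 ± 0.14, Basp1, a membrane-bound protein of growing axons, by 3.21 ± 0.31 and Ptgds, a prostaglandin D synthase, by 3.03 ± 0.16 on the log2 scale.

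Krtap17-1, named after the keratin-associated proteins of the hair shaft (chr11:99993234-99993994), was higher in ORS cells of every library. It stood at 169, 249, 8.97, 7.29 and 31.1 CPM in ORS cells and at 5.89, 8.36, 0.106, 0 and 1.12 CPM in basal cells (log2 4.84 ± 0.16, adjusted p = 3.44e-08). Its WT 1 and WT 2 levels were far above those of the other libraries in both classes, so the classes overlapped across libraries but not within a library.

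H19 and Igf2, neighbours in an imprinted locus, were lower in ORS cells. The growth-restraining non-coding RNA H19 stood at 238, 244, 258, 183 and 445 CPM in ORS cells and 2843, 1750.5, 1558, 1579.7 and 1459 CPM in basal cells (log2 -2.89 ± 0.21, adjusted p = 4.16e-06). Igf2, a fetal growth factor, stood at 7.06, 12.5, 15.6, 11.2 and 28.5 CPM against 105, 65.9, 53.3, 75.9 and 90.0 CPM (log2 -2.55 ± 0.26). Igfbp2, which binds insulin-like growth factors, stood at 25.6, 38.9, 25.5, 16.3 and 162 CPM against 179, 367, 202, 254 and 632 CPM (log2 -3.09 ± 0.22). All 3 ranges were apart, and the v1 library was the highest among ORS cells for each. Of 10 imprinted genes tested, 5 were lower (H19, Igf2, Phlda2, Plagl1 and Cdkn1c), with a list median of -0.93 against 0.00 over all genes. Also lower were the water channel Aqp3 (-2.57 ± 0.20), the glutamate transporter Slc1a3 (-2.54 ± 0.18), the chemokine scavenger Ackr4 (-2.35 ± 0.20), Ahnak2 (-2.34 ± 0.16), Trim7 (-2.21 ± 0.12) and the protease gene Klk10 (-2.21 ± 0.17, all log2).

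**Figure D3:**
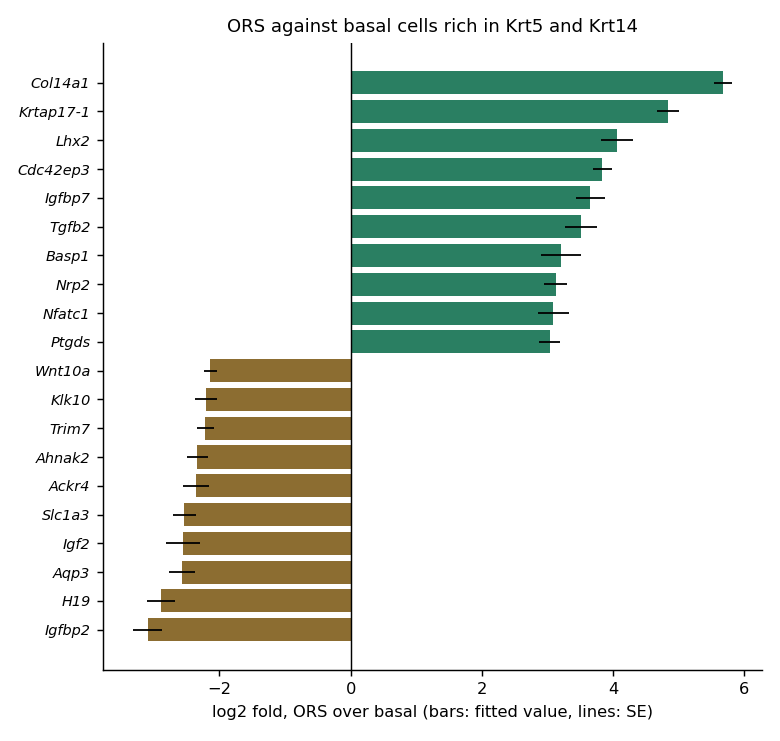
Fitted log2 fold (x axis) of ORS cells over basal cells rich in Krt5 and Krt14 for the 10 genes of largest fold in each direction among called genes with an average log2 CPM of at least 5, with the SE as lines. Of the genes plotted, Col14a1 has the largest positive fold, 5.68, and Igfbp2 the largest negative fold, -3.09.

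Of 33 ORS and bulge genes tested outside the rule, 12 were higher (Col14a1, Lhx2, Nfatc1, Trps1, Cd200, Runx1, Itgb6, Vdr, Wif1, Foxc1, Sfrp1 and Dkk3) and 4 lower (Aqp3, Postn, Krt15 and Krt6a), of which Wif1 and Krt6a turned against the planned reference. The list median was 0.85 on the log2 scale, and 6.91% of all genes were higher and 5.65% lower. Krt15, often used as a bulge keratin, was lower in ORS cells than in these basal cells, at 3026, 3044, 2321, 1699 and 3393 CPM against 8752, 10505, 10626, 7336 and 8000.0 CPM (log2 -1.90 ± 0.12). Its ranges were apart, but against the planned reference the difference was -0.38 ± 0.27 and did not pass (adjusted p = 0.464). Cd200, a surface protein of follicle stem cells, went the other way, at 116, 69.4, 28.7, 36.1 and 30.8 CPM against 12.8, 17.7, 2.87, 4.98 and 6.30 CPM (log2 2.59 ± 0.18), and was highest in WT 1 among ORS cells.

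Wnt ligands were mostly lower in ORS cells than in basal cells rich in Krt5 and Krt14. Of 11 tested, 8 were lower and 1 higher, with a median of -1.94, where 5.65% of all genes were lower and 6.91% higher. Wnt4 stood at 149.8, 159, 159, 96.3 and 243 CPM in ORS cells and 743, 678, 594, 431 and 559 CPM in basal cells (log2 -2.06 ± 0.14). Wnt10a stood at 25.2, 27.6, 31.01, 28.6 and 63.4 CPM against 111, 131, 125, 128 and 186 CPM (log2 -2.14 ± 0.10). For both the ORS range lay wholly below the basal range. Wnt3, Wnt3a, Wnt7a, Wnt7b, Wnt10b and Wnt16 were lower too, with -2.10 ± 0.17 for Wnt3, -1.40 ± 0.14 for Wnt7b and -1.34 ± 0.24 for Wnt10b. The ligand that was higher was Wnt5a, at 4.98, 3.29, 10.0, 11.1 and 1.68 CPM in ORS cells and from 0 to 1.59 CPM in basal cells (log2 2.39 ± 0.36).

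Receptors and inhibitors of the pathway moved in both directions, where 6.91% of all genes were higher in ORS cells and 5.65% lower. Among 18 receptors and co-receptors, Fzd7, Fzd1, Lgr4 and Ror2 were higher and Fzd6, Fzd10 and Ror1 lower (median 0.23). Of 10 secreted Wnt inhibitors, 3 (Wif1, Sfrp1 and Dkk3) were higher and Kremen2 was lower (median 0.58), with Wif1 turned against the planned reference. Of 16 effectors and targets, Ccnd1, Nkd1, Sp5 and Tcf7 were higher, Myc and Lef1 lower (median 0.41), with Nkd1 and Sp5 turned against the planned reference. Ccnd1, the cyclin that drives entry into the cycle, stood at 247, 296, 342, 325 and 255 CPM in ORS cells and 47.1, 50.6, 90.4, 108 and 103 CPM in basal cells (log2 1.79 ± 0.15), with no overlap.

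Hedgehog signals come from the Shh cells of the follicle. Gli1, the transcription factor that Hedgehog signals induce, stood at 61.3, 58.7, 41.1, 43.8 and 49.6 CPM in ORS cells and 14.7, 19.2, 12.9, 17.6 and 17.8 CPM in basal cells (log2 1.49 ± 0.11). The ranges were apart, and 2 of 12 pathway genes were higher (Gli1 and Hhip) and 1 (Cdon) lower, with a median of 0.50. The counts in this paragraph stand beside 6.91% of all genes higher and 5.65% lower. The small Hedgehog counts are thus not a result about the list. In the FGF pathway 4 of 10 genes were higher, among them the receptor Fgfr1 at 184, 138, 105, 109 and 70.0 CPM against 32.4, 16.2, 12.4, 20.3 and 15.5 CPM (log2 2.53 ± 0.13) and the target genes Spry4, Etv4 and Etv5. Of 19 BMP pathway genes 5 were higher (Bmp4, Fstl1, Id4, Smad6 and Smad9) and Bmp2 and Bmpr1b were lower. Of 13 TGF-beta genes 5 were higher (among them Tgfb1, Tgfb2, Tgfb3 and Ltbp1) and Tgfbi was lower, with a median of 0.06.

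Structural and differentiation genes separated the classes too, where 6.91% of all genes were higher in ORS cells and 5.65% lower. Of 30 basement membrane and integrin genes 7 were higher (Itgb6, Itgb8, Frem1, Egfl6, Nid1, Lamb1 and Lamc1) and 4 lower (Col17a1, Itga6, Col7a1 and Fras1), and the last group holds anchoring genes of the dermal junction. Of 11 spinous genes 7 were lower (median -1.15), and of 10 stress keratin and small proline-rich genes 5 were lower (median -1.83). Of 13 matrix and hair shaft genes 7 were higher and 1 lower (median 1.05). Of 42 S phase genes 13 were higher and none lower (median 0.84), and of 54 G2M genes 1 was higher (median 0.57). That G2M count is below the share over all genes and is not a result about the list. Of 20 genes of dissociation stress 7 were lower (median -0.67). All 5 melanocyte genes tested were higher, and the basal class had been cleared of cells rich in melanocyte RNA whereas ORS cells had not.

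A second basal reference, the one planned, held 1733 Krt5 and Krt14 cells in which none of the 5 ORS genes was detected. Its cells also held no Shh UMI and met the ORS limits on Krt79 and the inner root sheath keratins. Krt1 and Krt10 had to be under 10 per 10,000 in sum, where the basal cells rich in Krt5 and Krt14 were allowed under 100. The planned reference was mixed, since 4.45 to 25.2% of its cells carried melanocyte RNA and 0.865 to 17.4% class II RNA. Against it ORS cells were higher for 212 of 12714 genes (1.67%) and lower for 166 (1.31%). Of 34 ORS and bulge genes 10 were higher, Krt6a among them, and Wif1 was lower. Calls that turned between the references included Wif1 (-2.63 ± 0.33 here), Krt6a (3.92 ± 0.24), Sp5 (-1.52 ± 0.20), Nkd1 (-1.25 ± 0.17) and Bmp4 (-1.05 ± 0.13, all log2), and the median was -0.04 for secreted Wnt inhibitors and -0.19 for Wnt effectors. Of 10 stress keratin and small proline-rich genes 7 were higher here (median 1.91), and of 13 matrix and hair shaft genes 5 were lower (median -0.63), so these lists turned as well. Nrp2 (-0.37 ± 0.14), Basp1 (-0.14 ± 0.19) and Ptgds (-1.31 ± 0.40) were not past the threshold here. With 378 genes past it here and 1580 against basal cells rich in Krt5 and Krt14, most calls made there did not pass here. Wnt, Hedgehog and other genes named above without a value here may thus have lost their call. Nfatc1 (3.08 ± 0.30), the growth factor relative Pthlh (2.91 ± 0.18), Col14a1 (2.68 ± 0.16) and Tgfb3 (2.43 ± 0.15) were higher (all log2). Among the genes lower in ORS cells were Cd74, C1qa and Ctss of immune cells and Gpnmb, a gene of melanocytes and macrophages. The total of 378 genes was 186 to 226 when WT 1, WT 2, KO 1 or KO 2 was left out, and 6 to 8 of its 20 genes of largest fold then lost their call.

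Krt79 marks the upper follicle, where the hair canal and the sebaceous gland form. ORS cells were higher for 174 of 12706 genes (1.37%) and lower for 647 (5.09%) against 3270 of these cells. Col14a1 stood at 19.5, 18.1, 22.9, 27.4 and 11.6 CPM in upper follicle cells (log2 1.85 ± 0.10 for ORS over upper follicle, adjusted p = 7.25e-07). The Wnt inhibitor Sfrp1 stood at 29.5, 26.6, 44.4, 30.6 and 12.96 CPM in ORS cells and 9.94, 6.76, 9.54, 7.80 and 5.15 CPM in upper follicle cells (log2 1.83 ± 0.11). Within each library both were higher in ORS cells. The protease relative Prss35 (1.83 ± 0.11), Igfbp7 (1.5 ± 0.11) and the thymidine kinase Tk1 of S phase (1.16 ± 0.09) were higher as well. H19 was higher by 1.20 ± 0.05, but this turned to -0.68 when 4 of the 5 genes were asked of a member and to -0.90 in thinned cells.

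Most sebaceous gland genes tested were lower in ORS cells than in the upper follicle. Fa2h, which hydroxylates fatty acids for skin lipids, stood at 0.534, 0.380, 0.120, 0.101 and 1.56 CPM in ORS cells and 87.5, 158, 55.1, 15.5 and 92.2 CPM in upper follicle cells (log2 -7.52 ± 0.25). Elovl3, a fatty acid elongase of the sebaceous gland, stood at 0.712, 0.823, 0.361, 0.253 and 3.24 CPM against 109, 195, 73.5, 38.1 and 194 CPM (log2 -7.07 ± 0.20). The ranges of both were far apart. Far2 (-7.43 ± 0.24), Cyp2g1 (-6.92 ± 0.23) and Rarres1 (-6.08 ± 0.23) completed the 5 of largest fold at an average log2 CPM of at least 5, and 9 of 10 sebaceous genes were lower (median -3.67). Notch pathway genes were lower for 5 of 11 (median -0.82), among them Notch1 (-1.18 ± 0.11), Notch3 (-2.21 ± 0.19), Heyl (-4.43 ± 0.16) and Nrarp (-1.20 ± 0.08). Of the Grainyhead-like factors both Grhl3 (log2 -2.13 ± 0.28) and Grhl1 (log2 -1.75 ± 0.07) were lower in ORS cells. Nfatc1 differed by -0.11 ± 0.06 (adjusted p = 0.148).

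Against 4425 Shh cells of the hair matrix, ORS cells were higher for 594 of 13444 genes (4.42%) and lower for 430 (3.2%). H19 stood at 58.8, 58.6, 52.9, 38.8 and 87.1 CPM in matrix cells, below every ORS value (log2 2.17 ± 0.06, adjusted p = 5.08e-10). Col14a1 stood at 23.2, 20.5, 22.6, 21.0 and 9.26 CPM (log2 1.94 ± 0.09). H19 was thus higher in ORS cells than in matrix cells and lower than in basal cells rich in Krt5 and Krt14, with no overlap on either side. Also higher were the FGF binding protein Fgfbp1 (1.84 ± 0.12), the kinase Sgk1 (1.83 ± 0.11) and Gas1, a co-receptor of Hedgehog ligands (1.80 ± 0.14). Of 34 ORS and bulge genes 12 were higher and 2 (Wif1 and Edar) lower, with a median of 0.70 against -0.02 over all genes.

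Most matrix and hair shaft genes tested were lower in ORS cells than in matrix cells. Sp5, a direct Wnt target, stood at 6.88, 7.73, 2.68, 2.48 and 17.8 CPM in ORS cells and 55.5, 100.1, 45.0, 43.9 and 267 CPM in matrix cells (log2 -3.74 ± 0.12, adjusted p = 1.90e-09). The hair keratin Krt35 stood at 10.6, 11.1, 13.3, 15.9 and 13.7 CPM against 77.8, 115, 120.2, 88.7 and 92.9 CPM (log2 -2.95 ± 0.11). For both genes the ranges were apart. Bmp4 (-2.78 ± 0.14), the metallothionein Mt4 (-3.25 ± 0.08) and 3632451O06Rik completed the 5 of largest fold at an average log2 CPM of at least 5. Of 14 matrix and hair shaft genes 10 were lower in ORS cells and 1 higher (median -1.26), of 7 ectodysplasin pathway genes 4 were lower, and of 16 Wnt effectors 4 were lower and 1 higher. The median of 42 S phase genes was -0.12, near that of all genes.

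Within the ORS cells, those with Lgr5 in 4000 UMIs were set against those without. They numbered 401, 375, 512, 346 and 137 against 1097, 872, 1244, 973 and 666. Of 10509 genes tested, 344 were higher in the Lgr5-positive cells (3.27%) and 445 lower (4.23%) at an adjusted p under 0.05. The total of 789 was 291 with DESeq2, 351 when 2 UMIs of Lgr5 were asked and 3370 without thinning. The rule ties the genes together, because a member without Lgr5 needs 3 of the other 4 genes and a member with it only 2, so the other rule genes are not compared. Lgr5 was detected in more members before thinning, so the negative cells include members that carry it. Genes that vary with the other rule genes can be shifted by the same choice of members. Before thinning the positive cells were shallower in every library. Their medians were 7982, 9792, 10369.5, 11847.5 and 7598 UMIs, against 9093, 10622, 12543, 13255 and 9527 in the negative cells. The part of the choice and of depth in the differences was not tested.

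Sfrp1 stood at 61.7, 78.7, 106, 75.1 and 25.5 CPM in Lgr5-positive cells and 28.7, 26.7, 50.4, 25.95 and 18.8 CPM in Lgr5-negative cells (log2 1.21 ± 0.10, adjusted p = 6.26e-13). Col14a1 stood at 115, 161, 168, 161 and 56.6 CPM against 61.8, 76.5, 104, 77.1 and 36.8 CPM (log2 0.88 ± 0.07, adjusted p = 7.02e-13). Both were higher in the positive cells of each of the 5 libraries. The carboxypeptidase-like Cpxm1 (0.80 ± 0.10), the endothelin Edn2 (0.72 ± 0.09) and the calcification inhibitor Mgp (0.65 ± 0.09) were higher too, as were the integrin Itgb6 (0.90 ± 0.17), the vitamin D receptor Vdr (0.60 ± 0.07) and Lhx2 (0.42 ± 0.05). Nfatc1 differed by 0.00 ± 0.10 and Cd200 by 0.15 ± 0.09, neither past the threshold. Of 31 ORS and bulge genes 10 were higher and 7 lower (median 0.08).

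Igfbp2 stood at 8.73, 5.33, 5.37, 2.89 and 32.8 CPM in Lgr5-positive cells and 16.9, 30.96, 26.5, 22.1 and 138 CPM in Lgr5-negative cells (log2 -2.10 ± 0.18). It was lower in the positive cells of each library. H19 (-1.90 ± 0.09), Ahnak2 (-2.04 ± 0.12), BC100530 (-1.74 ± 0.07) and Ly6d, a surface protein of epithelial progenitors (-1.74 ± 0.06), were also lower. Of 10 Wnt ligands 6 were lower (median -1.21), among them Wnt3 (-1.61 ± 0.21), Wnt4 (-1.20 ± 0.08), Wnt7b (-1.23 ± 0.13) and Wnt10a (-1.16 ± 0.13). Of 13 spinous genes 10 were lower (median -0.81) and of 10 imprinted genes 6 (median -0.63). Of 42 S phase genes 15 were higher (median 0.21) and of 54 G2M genes 5. Of 9 melanocyte genes 6 were lower (median -0.62), so melanocyte RNA moved with the split, and its part in the other differences was not tested.

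**Figure D4:**
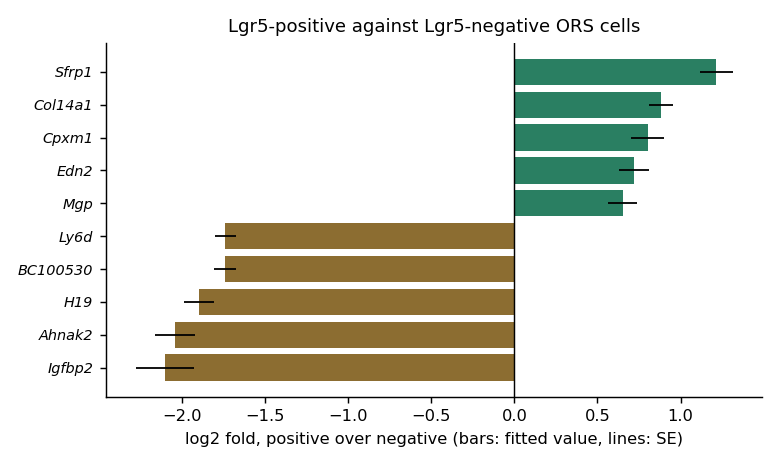
Fitted log2 fold (x axis) of Lgr5-positive over Lgr5-negative ORS cells for the 5 genes of largest fold in each direction among called genes with an average log2 CPM of at least 5, with the SE as lines. Of the genes plotted, Sfrp1 and Col14a1 have the largest positive folds, 1.21 and 0.88, and Igfbp2 the largest negative fold, -2.10.

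Genes of dividing cells were counted per cell. At least 3 of 10 genes of dividing cells, a measure added after values had been seen, were detected in 51.9 and 43.9% of thinned ORS cells in WT, 53.5 and 56.0% in KO and 54.0% in the v1 library. The means were 47.9 ± 5.65% in WT and 54.8 ± 1.77% in KO (SD, n = 2 each), and the 2 groups did not overlap although WT 1 and KO 1 lay close together. The planned measure, 3 genes of the G2M list, was met by 95.6 to 98.9% of ORS cells and so did not tell cells apart. The same 10-gene measure was met by 40.8, 31.9, 41.3, 41.1 and 29.0% of cells taken by melanocyte genes and by 50.6 to 71.9% of matrix and inner root sheath cells, so no cycling is read from it. An exact permutation test of 2 against 2 libraries cannot go below 0.33, and no other test of these shares was run.

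The effect of Grhl3 loss in ORS cells was read from the 2 KO against the 2 WT libraries. At an adjusted p under 0.05, 1820 of 12987 genes were higher in KO (14%) and 1648 lower (12.7%), and 390 and 627 of them at least 2-fold. The median over all genes was -0.01. Without KO 2 the total of 3468 genes was 2088, and in cells thinned to 4000 UMIs it was 1863. The median mitochondrial share of ORS cells was 3.70 and 3.50% in WT, 2.70 and 2.32% in KO and 1.25% in the v1 library. WT and KO did not overlap in it, the v1 library lay on the side of KO, and its part in the gene differences was not tested. The v1 library, which is WT, was nearer the KO mean than the WT mean of log2(CPM + 1) for 2618 of the 3468 genes (75.5%). Of all genes tested this share was 63.3%. Both KO libraries lay outside all 3 WT libraries for 1349 of the 3468 (38.9%) and for 28.1% of all genes tested. Those 2 shares have unlike bases. All 3468 genes were already apart from WT 1 and WT 2, against 8813 of the 12987 tested (67.9%), so the 2 shares are no check of the calls. With the v1 library counted as WT, 0 genes passed the edgeR test and 1069 had an unadjusted p under 0.05. Chemistry and animal cannot be told apart in the v1 library, so its value is given beside the genes whose levels are printed in full.

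Among genes that fell, Krtap17-1 went from 169 and 249 CPM in WT to 8.97 and 7.29 CPM in KO (log2 -4.59 ± 0.22, adjusted p = 0.000245), with 31.1 CPM in the v1 library. Hr, a nuclear corepressor needed for hair cycling, fell from 63.5 and 57.1 CPM in WT to 15.02 and 10.9 CPM in KO (log2 -2.12 ± 0.17), with 28.9 CPM in the v1 library. All 3 WT libraries were above both KO libraries for both genes.

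Other genes that fell in KO were low in the v1 library as well. Tsc22d3, which glucocorticoids induce, was at 102 and 187 CPM in WT, 14.3 and 13.7 CPM in KO and 5.36 CPM in the v1 library (log2 -3.28 ± 0.27). Arrdc3, an arrestin relative, was at 74.3 and 83.9 CPM in WT, 11.3 and 26.4 CPM in KO and 19.5 CPM in the v1 library (log2 -1.996 ± 0.32). Glul, glutamine synthetase, was at 134 and 189 CPM in WT, 47.0 and 37.1 CPM in KO and 51.0 CPM in the v1 library (log2 -1.85 ± 0.19). The v1 library was below both KO libraries for the first of these genes, between the 2 KO libraries for the next and above both for the last, and below both WT libraries throughout. The scaffold protein Ahnak (-2.02 ± 0.34), the Notch target Hes1 (-1.85 ± 0.27), the non-coding Snhg9 (-2.32 ± 0.61) and 4631405K08Rik (-1.81 ± 0.34) were also among the 10 of largest fold at an average log2 CPM of at least 5, all higher in WT 1 than in WT 2. With DESeq2 Snhg9 lost its call (adjusted p = 0.0981).

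Among the genes of largest fold that rose in KO were enzymes of sterol, lactate and polyamine metabolism. Idi1, an isomerase of the cholesterol pathway, was at 11.2 and 14.7 CPM in WT, 48.4 and 66.0 CPM in KO and at 81.1 CPM in the v1 library (log2 2.23 ± 0.19). Fdps, which acts after it, was at 23.4 and 30.7 CPM in WT, 92.7 and 102 CPM in KO and 209.7 CPM in the v1 library (log2 1.94 ± 0.15). For both the v1 library was above the KO libraries. Ldha, lactate dehydrogenase, was at 181 and 205 CPM in WT, 645 and 680.1 CPM in KO and 653 CPM in the v1 library (log2 1.87 ± 0.12, adjusted p = 0.000409). Odc1, which starts polyamine synthesis, was at 22.6 and 21.4 CPM in WT, 89.9 and 81.1 CPM in KO and 70.0 CPM in the v1 library (log2 2.05 ± 0.12). The v1 library lay with or near the KO libraries for both.

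The other genes that rose differed in where the v1 library lay. Fosb, an immediate early gene, was at 15.6 and 29.5 CPM in WT, 71.8 and 103 CPM in KO and 13.7 CPM in the v1 library (log2 2.05 ± 0.29). Fabp5, the epidermal fatty acid binding protein, was at 352 and 266 CPM in WT, 976 and 1219 CPM in KO and 804 CPM in the v1 library (log2 1.92 ± 0.16), with the v1 library between the groups and nearer to KO. Krt6a, a keratin of stressed epidermis, was at 2.37 and 12.2 CPM in WT, 30.4 and 84.6 CPM in KO and 9.83 CPM in the v1 library (log2 3.07 ± 0.66), but in cells thinned to 4000 UMIs the fold was -1.52 (adjusted p = 0.291), and its reads may be split with its near copy Krt6b. Gm8730 (2.68 ± 0.16), Gm10093 (3.06 ± 0.73) and Gt(ROSA)26Sor (1.99 ± 0.26) completed the 10 of largest fold at that level, and Gm10093 lost its call with DESeq2 (adjusted p = 0.152). Gm8730 and Gm10093 are predicted genes whose reads may come from near-identical copies, so their values are uncertain.

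**Figure D5:**
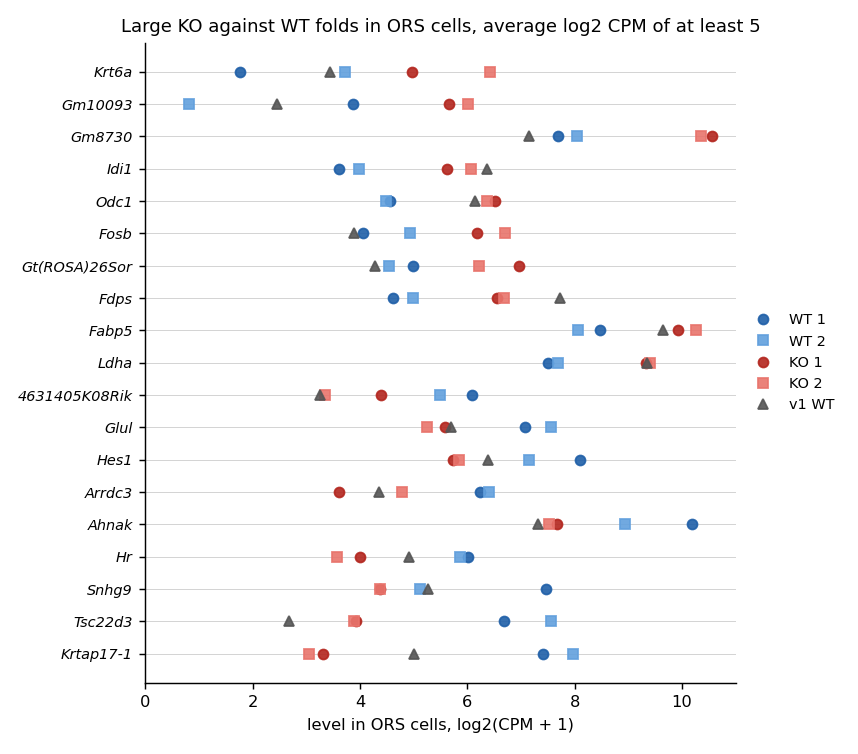
Level in ORS cells, as log2(CPM + 1) (x axis), of 19 of the 20 genes of largest fold in KO against WT among called genes whose average log2 CPM reached 5 and whose WT and KO libraries were apart, with 1 point per library. WT 1 and WT 2 lie apart from KO 1 and KO 2 by the choice of genes, and the v1 library is nearer to KO for 13 of the 19 genes.

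The Grainyhead-like relatives of Grhl3 were read by name. Grhl1 was at 32.6 and 38.7 CPM in WT, 16.1 and 19.1 CPM in KO and 16.8 CPM in the v1 library (log2 -0.93 ± 0.14, adjusted p = 0.00406). Grhl2 was at 40.5 and 40.8 CPM in WT, 37.9 and 40.0 CPM in KO and 22.0 CPM in the v1 library (log2 0.02 ± 0.11, adjusted p = 0.884). Grhl2 did not pass the threshold, and its sign turned on thinning (-0.13). The fold is scaled by TMM and CPM is not, so near 0 their signs can differ. In basal cells rich in Krt5 and Krt14 the Grhl1 fold was -0.42 ± 0.47 (adjusted p = 0.566). The basal factor Trp63 was at 345 and 343 CPM in WT, 167 and 166 CPM in KO and 172 CPM in the v1 library (log2 -0.96 ± 0.10, adjusted p = 0.0015), with the v1 library next to KO.

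The next genes were read because the study names them for Wnt signalling. Wnt4 (-0.18 ± 0.21, adjusted p = 0.569), Lef1 (0.37 ± 0.16, 0.126), Ctnnb1 (0.07 ± 0.10, 0.62) and Gsk3b (-0.11 ± 0.11, 0.458) did not pass the threshold in ORS cells, and Wnt4 turned to 0.17 on thinning, whereas without KO 1 it was -0.61 and past the threshold (adjusted p = 0.0272). Gpc3, a glypican that binds Wnt ligands, fell from 186 and 193 CPM in WT to 95.5 and 101 CPM in KO (log2 -0.86 ± 0.10, adjusted p = 0.00185), with 118 CPM in the v1 library. Axin2, a negative feedback target of Wnt signals, was at 74.7 and 56.8 CPM in WT, 19.4 and 20.2 CPM in KO and 13.9 CPM in the v1 library (log2 -1.64 ± 0.15). Dkkl1 changed by -1.75 ± 0.41, past the threshold. Wnt5a, which the study does not name and which was taken from the ligand list, changed by 1.44 ± 0.23, also past the threshold. Of the pathway lists, 1 of 11 ligands was higher, 1 of 19 receptors was higher and 3 lower, 1 of 10 secreted inhibitors was higher and 3 lower, and 1 of 16 effectors was higher and 4 lower. With 14% of all genes higher and 12.7% lower, these small counts are not a result about the lists.

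Of 34 ORS and bulge genes outside the rule 4 rose (Krt6a, Igfbp5, Col14a1 and Ptn) and 7 fell (Cd200, Foxc1, Tnc, Tle4, Runx1, Dkk3 and Krt15), with a median of -0.08. Against 14% of all genes higher and 12.7% lower, the count of those that rose was near the background. Col14a1 rose by 0.49 ± 0.14 on the log2 scale (adjusted p = 0.0396), from 64.2 and 83.7 CPM in WT to 101 and 94.2 CPM in KO, while the v1 library was at 30.0 CPM. Krt15 changed by -0.50 ± 0.15 (adjusted p = 0.0433). Of 12 Hedgehog genes 2 fell, of 12 Notch genes 2 fell, and of 13 TGF-beta genes 1 rose and 3 fell. Among BMP genes 1 of 19 rose and 3 fell.

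Many adhesion genes fell, where 12.7% of all genes were lower in KO and 14% higher. Of 31 basement membrane and integrin genes 13 fell and none rose (median -0.41), and of 18 desmosome and adherens junction genes 7 fell and Dsc2 rose (median -0.37). Dst, a linker of hemidesmosomes to keratin, was at 724 and 820.0 CPM in WT, 304 and 267 CPM in KO and 139 CPM in the v1 library (log2 -1.35 ± 0.13). The desmosomal plakoglobin Jup was at 288 and 236 CPM in WT, 156 and 146 CPM in KO and 262 CPM in the v1 library (log2 -0.70 ± 0.13). The desmosomal Perp was at 1373 and 1542 CPM in WT, 965 and 846 CPM in KO and 2018 CPM in the v1 library (log2 -0.60 ± 0.12). The v1 library lay between the WT libraries for Jup, above them for Perp and below KO for Dst. It was nearer KO for 1 of the 8 junction genes and 8 of the 13 basement membrane genes.

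Differentiation genes were read in ORS cells by list, beside 14% of all genes higher in KO and 12.7% lower. Of 14 granular and envelope genes 8 fell (median -1.90), among them the filaggrin gene Flg at 71.4 and 32.6 CPM in WT, 1.12 and 3.44 CPM in KO and 6.59 CPM in the v1 library (log2 -4.47 ± 0.50) and the ceramide elongase Elovl4 at 19.2 and 16.0 CPM in WT, 2.32 and 2.88 CPM in KO and 35.9 CPM in the v1 library (log2 -2.68 ± 0.20). Of 14 spinous genes 7 fell and 2 rose (Cdkn1c and Lgals7), with Krt1 at 867 and 658 CPM in WT, 323 and 272 CPM in KO and 3300.2 CPM in the v1 library (log2 -1.27 ± 0.16). Of 11 stress keratin and small proline-rich genes 8 rose (median 3.601), among them Sprr2a3 at 1.66 and 0.127 CPM in WT, 29.8 and 37.4 CPM in KO and 2.01 CPM in the v1 library (log2 5.28 ± 0.49), which is uncertain because it belongs to a family of near-identical genes. The share of suprabasal cells was lower in the KO libraries, a call that was lost in several alternatives, and the part of their free RNA in the ORS values was not tested. Krt1 and Krt10 RNA was spread unevenly over the members. The median member held 1.24 to 11.7 UMIs per 10,000 of the 2 keratins, while 2.78 and 2.00% of members in WT, 1.25 and 1.52% in KO and 12.5% in the v1 library held 100 or more. Members with exactly 3 of the rule genes held 23.03 and 21.7 per 10,000 in WT, 13.2 and 12.5 in KO and 92.6 in the v1 library. The part of these members in the values above was not tested either.

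Proliferation genes of S phase rose together. Of 42 tested, 32 rose and none fell (median 0.81), with Pcna, the replication clamp, at 51.5 and 55.5 CPM in WT, 96.1 and 118 CPM in KO and 188 CPM in the v1 library (log2 1.09 ± 0.13). Nasp, a histone chaperone, was at 146 and 138 CPM in WT, 266 and 294 CPM in KO and 244 CPM in the v1 library (log2 1.07 ± 0.11). Of 54 G2M genes 12 rose and 8 fell (median 0.10). With 14% of all genes higher and 12.7% lower, those G2M counts are not a result about the list. The summed level of S phase genes was 1874 and 1753 CPM in WT, 2896 and 3275 CPM in KO and 3432 CPM in the v1 library, so the v1 library was highest. Of 20 genes of dissociation stress 11 rose (median 0.59), and their sum was 3676 and 4372 CPM in WT, 4585 and 4849 CPM in KO and 6132 CPM in the v1 library.

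The metabolic lists that follow were written after values had been seen. Their counts stand beside 14% of all genes higher in KO and 12.7% lower. Of 21 cholesterol genes 18 rose (median 1.09), and the v1 library was nearer KO for 17 of these 18. Of 16 glucocorticoid response genes 10 fell and 2 rose (Cdkn1c and Dusp1), with a median of -0.91, and the v1 library was nearer KO for 11 of the 12. Of 22 glycolysis and hypoxia genes 15 rose and 2 fell (Hk2 and Mxi1), with a median of 0.87, and the v1 library was nearer KO for 12 of the 17. Of 18 ribosome biogenesis genes 14 rose and Myc fell (median 0.78), and the v1 library was nearer KO for 14 of these 15. Of 11 fatty acid genes 7 rose (median 0.67), and the v1 library was nearer KO for 4 of the 7. Bnip3, a hypoxia-induced gene of mitochondrial turnover, was at 18.4 and 20.3 CPM in WT, 68.7 and 43.1 CPM in KO and 10.7 CPM in the v1 library (log2 1.62 ± 0.22), with the v1 library below WT.

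The promoters of glycolysis and hypoxia genes were read for the letters ACGTG, the core that hypoxia-inducible factors bind, on both strands from 250 bases before to 50 after the start. The letters lay in a promoter of 16 of 23 such genes (69.6%), of 11 of the 15 that rose (73.3%) and of 5 of the other 8 (62.5%). Over all 27025 genes with a promoter the share was 21.8%, over genes tested 29.1% and over genes higher in KO 32.1%. A gene counts when any of its promoters holds the letters. The list was written after values were seen and chosen for glycolysis and hypoxia. Its share against all genes is therefore no test of the KO effect, and what made these genes rise was not tested. The promoters of Ldha and Bnip3, from RefSeq on GRCm38.p6, are shown because these genes rose and hold the letters 5 and 2 times, with each match in capitals. Ldha has 2 listed promoters, and the 1 with the most matches is shown. CACGTG counts on both strands, and a match is no proof of binding. Ldha lies on the plus strand, at chr7:46845554-46845853, and Bnip3 on the minus strand, at chr7:138909457-138909756.
Ldha: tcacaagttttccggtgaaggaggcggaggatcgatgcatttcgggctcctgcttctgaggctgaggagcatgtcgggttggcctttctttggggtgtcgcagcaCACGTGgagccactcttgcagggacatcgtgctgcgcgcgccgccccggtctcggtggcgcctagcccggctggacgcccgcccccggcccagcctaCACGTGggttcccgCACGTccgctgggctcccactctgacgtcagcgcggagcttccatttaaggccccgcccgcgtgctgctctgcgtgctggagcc
Bnip3: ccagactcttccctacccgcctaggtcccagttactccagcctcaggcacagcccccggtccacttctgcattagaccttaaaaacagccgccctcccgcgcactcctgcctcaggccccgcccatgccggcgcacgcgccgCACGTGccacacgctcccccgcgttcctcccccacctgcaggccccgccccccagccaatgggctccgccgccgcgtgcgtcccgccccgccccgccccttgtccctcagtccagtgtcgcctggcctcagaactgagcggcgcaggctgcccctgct

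RNA of other cell types was summed in ORS cells. The melanocyte markers were at 994 and 629 CPM in WT, 443 and 962 CPM in KO and 414 CPM in the v1 library, with overlap. Markers of Langerhans cells and macrophages were at 171 and 208 CPM in WT, 194 and 217 CPM in KO and 383 CPM in the v1 library. Merkel markers were at 21.4 and 11.1 CPM in WT against 5.17 and 1.26 CPM in KO and 6.93 CPM in the v1 library, and haemoglobin genes at 1.60 and 0.570 against 5.37 and 9.26 CPM and at 0 in the v1 library. Endothelial markers were at 11.3 and 11.7 CPM in WT, 22.0 and 22.8 CPM in KO and 32.6 CPM in the v1 library, and dermal papilla markers at 3.08 and 2.79, 5.65 and 4.71, and 2.35 CPM. WT and KO did not overlap in these last 4 lists, at levels that are a small part of the ORS RNA. They did not overlap for 67.9% of all single genes tested either, so this is not a result about the lists. Of single genes, 3 of 3 haemoglobin genes rose and 2 of 4 Merkel genes fell, where 14% of all genes were higher and 12.7% lower. Without the cells rich in melanocyte or class II RNA, 3704 genes passed in KO against WT in place of 3468.

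Whether the KO difference was the same in ORS cells as in basal cells was tested directly. Against basal cells rich in Krt5 and Krt14 it differed for 468 of 12888 genes (3.63%), but for 122 with DESeq2, 262 without WT 1 and 645 at most without another library. Those basal cells numbered 200 and 204 in WT. Of the 10 genes of smallest p, the LIM protein genes Crip1 (2.44 ± 0.27) and Crip2 (2.89 ± 0.31) and the metallothioneins Mt1 (0.97 ± 0.09) and Mt2 (0.98 ± 0.09) had a KO difference that was higher in ORS cells. Apoe (-1.15 ± 0.09), Calm4 (-1.35 ± 0.13), Smoc2 (-1.19 ± 0.14), Gas1 (-1.18 ± 0.14), Wbp5 (-1.10 ± 0.12) and Postn (-1.29 ± 0.15) had one that was lower, all on the log2 scale. Against the mixed planned reference 11 of 12867 genes differed (0.0855%).

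For Tsc22d3, Odc1, Fabp5 and Hes1 the KO difference had the same sign in both classes, which come from the same libraries. Tsc22d3 changed by -3.28 ± 0.27 in ORS cells and -3.67 ± 0.27 in basal cells, and Odc1 by 2.05 ± 0.12 and 2.03 ± 0.19. For Fabp5 the values were 1.92 ± 0.16 and 3.69 ± 0.40, and for Hes1 -1.85 ± 0.27 and -1.86 ± 0.36. In those basal cells 1893 of 9628 genes passed in KO against WT, but 160 without WT 1, 825 without WT 2 and 1126 with DESeq2.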

How the data were processed

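The authors aligned the reads to mm10 with Cell Ranger 1.3.1, per the submitters' processing notes, which also name Seurat (the methods give another Cell Ranger version), and deposited matrices of raw UMI counts per gene and called barcode for 13 libraries. These hold 27998 gene identifiers with 27933 symbols. The 5 P0 libraries were used here. The v1 library has shorter barcodes than the others, as its title's chemistry implies, although its protocol text names v2. The libraries of E14.5 and E16.5 were not analysed here, and values of some genes are not reported here.

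Cells with 900 to 7700 genes and at most 10% mitochondrial UMIs were kept, the limits of the methods for P0. Before this filter the P0 libraries held 49245953 to 107038146 UMIs each. ORS cells and the other classes were then taken by gates on UMIs. Upper follicle cells had Krt5 and Krt14 at 10 or more and Krt79 at 3 or more per 10,000 with at most 1 Shh UMI, and matrix cells had 2 or more Shh UMIs with Krt79 under 3 per 10,000. Doublets were not removed in the main values. Scrublet scores (scanpy 1.11.5) at 0.8% per 1000 cells took 6.98 to 11.4% of ORS cells in an alternative. Of all kept cells they took 4.05 to 7.47%, a lower share than of ORS cells in each library.

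UMIs were summed per library and class and fitted with edgeR 4.0.16 (R 4.3.3) by the quasi-likelihood test with TMM, filterByExpr and Benjamini-Hochberg adjustment over all genes tested. KO against WT used 2 libraries each, without the v1 library. Class comparisons used all 5 libraries with library as a block, and a call needed at least a 2-fold difference. The Lgr5 split used cells thinned to 4000 UMIs. Levels are CPM of summed UMIs. DESeq2 1.42.0 served as another tool. Each fit was checked on simulated counts. Alternatives for the gene fits were RLE normalization, no filter on low counts and the omission of any library in turn. A mitochondrial limit of 5%, 4 of the 5 rule genes, thinning and doublet removal were used for class shares and KO against WT in ORS cells. They also served the comparisons with the planned reference, upper follicle and matrix cells, but not those with basal cells rich in Krt5 and Krt14. A replicate block was fitted for class shares, KO against WT in ORS cells and the planned test of different KO effects. Replicate numbers do not pair the libraries, since deviations of same-numbered libraries correlated at 0.0229 over 12999 genes.

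Members and gene lists were chosen with earlier results of these data known. Named genes were the rule genes and Col14a1, the 10 of largest fold in each direction for KO against WT and the basal classes (5 for the others) among called genes whose average log2 CPM reached 5 and, for KO, no overlap of the libraries, up to 4 members of highest level of each list, the Grainyhead-like genes and the genes named by the study for Wnt signalling. Other genes named from lists, and the 10 of smallest p for differing KO effects, were picked after their values were seen. The basal cells rich in Krt5 and Krt14, the 10 division genes and the lists for cholesterol, fatty acids, glycolysis and hypoxia, glucocorticoid response and ribosome biogenesis were also added after values were seen. Coordinates and promoters came from GRCm38.p6, with 27722 gene identifiers matched.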

Additional observations from a re-analysis of the deposited data

Results flagged for a closer look

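For 11 genes the KO against WT difference in ORS cells was not the same as in the planned basal reference, by edgeR's test of the interaction of genotype and class at an adjusted p under 0.05 (0.0855% of genes tested). The 11 became 4 without WT 1, 60 without WT 2 and 145 without KO 2. Of the 11 genes themselves, 10 lost their call without WT 1, 4 with RLE normalization, 3 without KO 1 and 2 without WT 2. The reference cells were mixed with melanocyte and immune RNA. Values of 10 of them follow, and in each the KO difference was lower in ORS cells. The difference of log2 folds was -1.94 for Postn, a matrix protein, -2.02 for the chemokine scavenger Ackr4, -2.23 for Fam25c, -1.46 for Calm4, a calcium-binding protein of differentiating epidermis, and -1.59 for Clca3a2. It was -0.93 for the thioredoxin inhibitor Txnip, -0.87 for Nfkbia, an inhibitor of NF-kappaB, -1.80 for Endou, -0.78 for Ifitm3, an interferon-induced gene, and -0.64 for the chemokine Cxcl14. Postn and Calm4 were also among the 10 genes of smallest p against basal cells rich in Krt5 and Krt14.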

How the results depend on the processing

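The KO against WT total of 3468 genes was 2909 with DESeq2, 3459 with RLE, 4347 without a filter, 3399 without doublets and 1863 in cells thinned to 4000 UMIs. With a replicate block it was 4147 and the ORS share changed by -0.14. It was 0 with the v1 library as WT, where 24 named genes lost their call. Leaving out a library gave 2088 to 3706. The ORS share turned to a log2 fold of 0.10 with 4 of the 5 rule genes. Against the planned reference, 378 genes became 716 with 4 of 5 rule genes, 825 on thinning, 124 with the 3 WT libraries, 1580 with basal cells rich in Krt5 and Krt14 (1252 to 1795 without a library), and 186 to 539 without a library. The test of different KO effects gave 11 genes, 7 with RLE, 175 without a filter, 148 with a replicate block, 468 with the Krt5 and Krt14 cells (262 to 645 without a library, 122 with DESeq2) and 4 to 145 without a library. The Lgr5 split gave 291 genes with DESeq2, 3370 without thinning, 351 at 2 UMIs of Lgr5 and 541 to 723 without a library. The share of ORS cells with 3 G2M genes, which nearly every cell met and from which no cycling is read, differed by 1.37 points between KO and WT, by 0.472 at 2 G2M genes, 6.67 at 5, 0.426 without thinning, 6.84 with division genes and 0.632 to 2.11 without a library. Directions turned for Wnt4 in KO (0.051 at a mitochondrial limit of 5%, 0.21 with 4 of 5 rule genes, 0.17 on thinning), Grhl2 (-0.13 on thinning), Krt6a (-1.52 on thinning), Gsk3b (0.10 with v1 as WT), Krt16 against the planned reference (-0.49 on thinning) and H19 against upper follicle cells (-0.68 with 4 of 5 rule genes, -0.90 on thinning). Without a library, Wnt4 ranged from -0.61 to 0.15 and Grhl2 from -0.0054 to 0.050, both turned without KO 2, and Wnt4 passed the threshold without KO 1. The cause was not tested. Totals against upper follicle (711 to 1172) and matrix cells (802 to 1125) stayed within 1.5 times. With 2 libraries per genotype, a gene that did not pass may still differ.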
